A study of Bos taurus with 20 samples.

Results

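The aryl hydrocarbon receptor gene AHR, its partner ARNT, the cytochrome P450 genes CYP1A1 and CYP1B1, and the P450 transcript CYP3A74 were followed in 5 kinds of bovine follicular sample. These 5 genes were taken from the 22550 genes or transcripts of a custom Agilent array by the gene name of the probe, and CYP3A74 by its Ensembl transcript, ENSBTAT00000063483. They were represented by 12 of the 61325 non-control spots. The genes were chosen by earlier readings of these arrays, namely the rise of CYP3A74 in cultured cumulus cells, with the receptor pathway set beside it. The samples came from antral follicles, 3 to 6 mm wide, of slaughtered cattle. They were the theca layer (TH), the granulosa cells of the follicle wall (GC), the cumulus cells around the oocyte (CC) and the oocytes themselves, all immature, and CC detached from their complexes after 4 h of in vitro maturation (CC-IVM), with 4 arrays in each group. Cy3-labelled cRNA was made from 200 ng of total RNA. The replicates are described as biological, but how many animals or complexes entered each of them, and the medium used for the 4 CC-IVM samples, are not given in the sources used here. No agonist or inhibitor of AHR is named for any group.

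AHR is a transcription factor of the cytosol, held there by HSP90 chaperones, that moves to the nucleus when it binds a ligand such as a dioxin, a polycyclic hydrocarbon or a breakdown product of tryptophan. There it pairs with ARNT and turns on genes of detoxification, of which CYP1A1 is the best-known readout and CYP1B1, which also hydroxylates oestrogens, is another. The repressor AHRR and the ADP-ribosyltransferase TIPARP are targets that in turn dampen the receptor. CYP3A enzymes, to which CYP3A74 belongs, oxidize steroids and many drugs, and their genes are classically induced through other receptors, foremost the pregnane X receptor NR1I2 and its partner RXRA.

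In the UMD 3.1 annotation of the array, CYP3A74 is placed at chr25:37125929-37175162, CYP1A1 at chr21:34342808-34345682, CYP1B1 at chr11:20493493-20499001, AHR at chr4:25785333-25834977 and ARNT at chr3:19956088-19991725, without strand. In RefSeq (ARS-UCD2.0), CYP3A74 lies on chromosome 25 between CYP3A28 and CYP3A76, followed by CYP3A24. The probes are 60 bases long, and each gene had 2 probe sequences, spotted once each except for ARNT, whose sequences were spotted 2 times each. A search of all probes of the array without gaps, over at least 40 bases and at 80% identity or more, found a near-copy for 1 of the 10 probe sequences. Probe 2 of CYP3A74 matched probe 1 of CYP3A76 over 57 bases with 4 differences, which are G1A, G18A, A39G and G53T, counted from the 5′ end of the CYP3A74 probe with its base first. The first 30 bases of that match are shown for both, because the reading of CYP3A74 depends on how far these probes can tell the genes apart, with the differing bases in capitals:
CYP3A74 probe 2: GcttgatttactttgtgGtaaaactcagaa
CYP3A76 probe 1: ActtgatttactttgtgAtaaaactcagaa

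Probe 1 of CYP3A74 had no such match, and its first 30 bases are given. Its match to other CYP3A transcripts, beyond the probes of the array, was not examined. They are followed by the CYP1B1 probe that gave the clearer signal in TH, and by a probe each of CYP1A1, AHR and ARNT, the trio that makes the classical receptor, partner and readout:
CYP3A74 probe 1: agatggaaccataagtggagcctgactttc
CYP1B1 probe 2: aaccaactgacccacagatgatgtgctttg
CYP1A1 probe 2: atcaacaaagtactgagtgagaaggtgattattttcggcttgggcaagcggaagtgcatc
AHR probe 1: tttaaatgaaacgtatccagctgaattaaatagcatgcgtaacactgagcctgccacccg
ARNT probe 1: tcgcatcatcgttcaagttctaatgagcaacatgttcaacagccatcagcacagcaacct

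All levels are log2 of the processed, background-subtracted intensity minus the 75th percentile of the array, with the median taken over the spots of a gene. They compare the same gene between samples and not different genes with each other. A spot counts as detected where the scanner software marked it well above background, and a gene where at least 1 of its spots was. The scaled floor differed between arrays. The share of probes well above background was 54.2% to 58.3% in CC-IVM, 58.9% to 62.8% in CC and 49.3% to 68.8% in oocytes, lowest on oocyte replicate 2, where undetected genes therefore lay near -6.3 rather than between -8 and -9. The 75th percentile of the intensity was 284.5 to 395.9 in CC-IVM against 536.3 to 657.3 in CC. The 4 CC-IVM arrays shared a slide of their own, whereas replicates 1 and 2 of the other groups lay on 1 slide and replicates 3 and 4 on another, so that slide and maturation cannot be told apart. In such bulk samples, fewer cells of a type and less RNA per cell cannot be told apart either.

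CYP3A74 had the largest fitted log2 difference between CC and CC-IVM among all 22550 genes, a rank that rests on CC values at the floor. It was chosen for this difference, which is given as a description only. On the CC arrays its values were -7.94, -7.45, -7.28 and -7.53, none of them above background. On the CC-IVM arrays they were -0.69, 2.53, 1.41 and 1.67, all above background. The groups were far apart, and replicate 1 of CC-IVM stood below the other 3. The means were -7.55 ± 0.28 (SD, n = 4) in CC and 1.23 ± 1.37 (SD, n = 4) in CC-IVM, a log2 difference of 8.78 (SE 0.57). Because CC was at the floor, the rise is expressed as at least 99.7-fold, where the CC value of each array is replaced by the lowest signal that was well above background on it. On this scale HAS2 was at least 160-fold higher, and as both values are lower bounds the 2 rises cannot be ranked. Over all genes, 30.3% were called higher and 15.5% lower in CC-IVM than in CC by limma at an adjusted p under 0.05.

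Without CC-IVM replicate 1 the difference was 9.42. On this array 54.5% of probes were above background and the 75th percentile was 284.5, the lowest of the group, and their part in the low value was not tested. The difference fell to 4.60 with normexp background correction and to 5.02 in the deposited table, which holds signals without background subtraction, so its size depends on how the background of CC was treated.

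In the oocyte CYP3A74 was -0.24, 0.29, 0.31 and 0.20, above background on every array and with a mean of 0.14 ± 0.26 (SD, n = 4). In TH it was -5.66, -5.74, -4.70 and -4.32, also above background on all 4, with a mean of -5.10 ± 0.70 (SD, n = 4). In GC it was -7.44, -7.32, -7.18 and -7.09, not above background on any. The order of the means was thus CC-IVM, oocyte, TH and then GC and CC at the floor. The oocyte values lay inside the range of CC-IVM, with a difference of 1.09 (SE 0.47), and GC and CC, both at the floor, have no order. CC-IVM exceeded TH by 6.33 (SE 0.47). TH lay below the oocyte, with a log2 difference of -5.24 (SE 0.28, adjusted p = 1.5e-10 by limma), and the oocyte exceeded GC by at least 36.1-fold (adjusted p = 3.3e-12). These differences were smaller with normexp, with TH minus oocyte at -3.18 and GC minus oocyte at -3.30, and GC minus oocyte was -4.72 in the deposited table. TH minus GC was 2.15 (adjusted p = 3.3e-05), but TH did not exceed the floor of the GC arrays, so no fold is given, and the difference was 0.50 in the deposited table and 0.12, no longer past the threshold, with normexp.

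**Figure D1:**
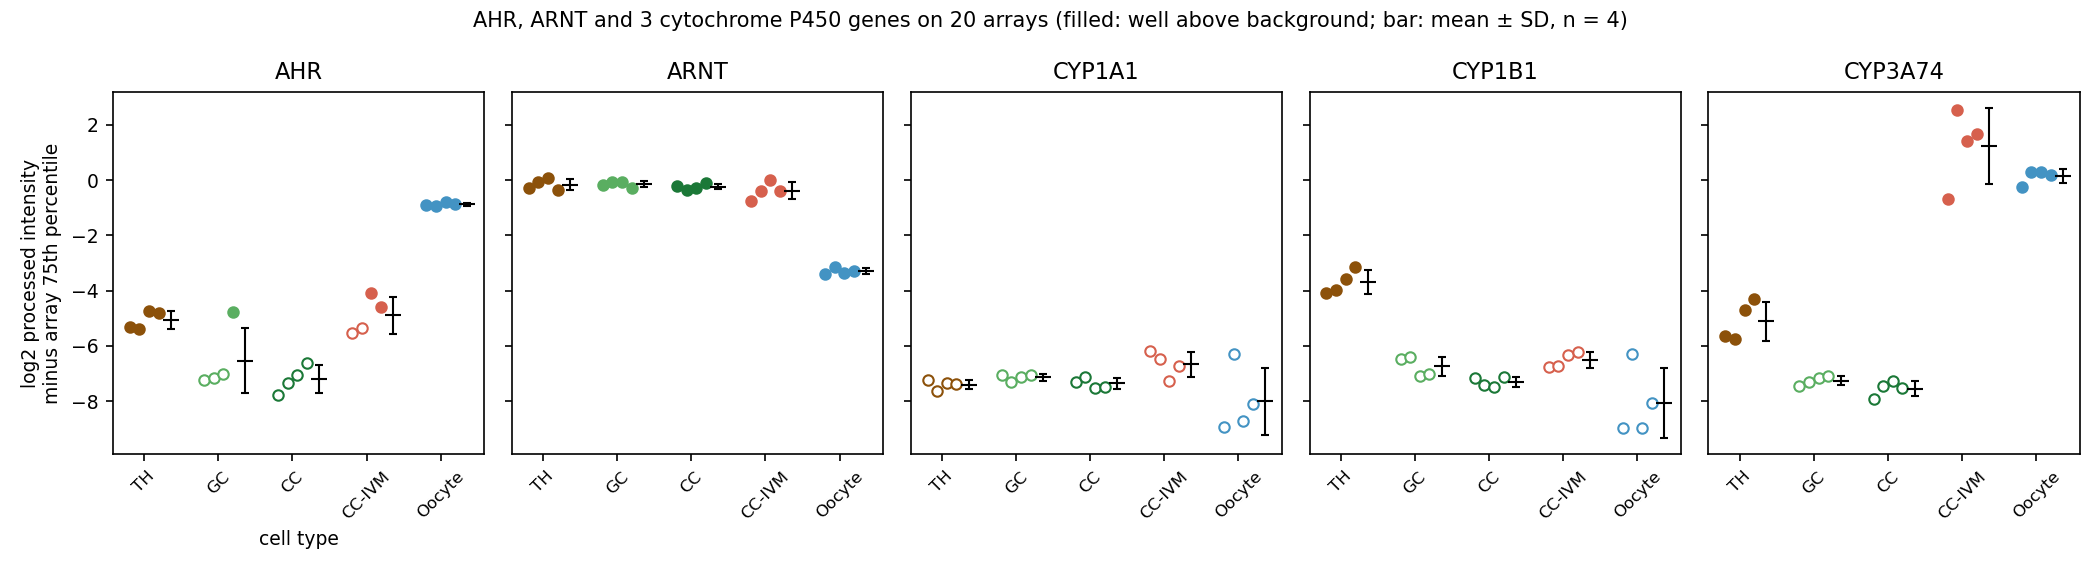
Level of AHR, ARNT, CYP1A1, CYP1B1 and CYP3A74 (log2 processed intensity minus the array's 75th percentile) in TH, GC, CC, CC-IVM and oocytes, with 1 point per array, filled where the gene was well above background, and the mean ± SD of 4 arrays as a bar. CYP3A74 lay between -0.69 and 2.53 in CC-IVM and below -7 in CC, CYP1A1 was open on all 20 arrays, and ARNT was lowest in the oocyte, where AHR was highest.

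Both CYP3A74 probes moved alike. Probe 1, without a near-copy among the probes of the array, was -7.91, -7.43, -6.96 and -7.48 in CC and -0.12, 3.11, 2.04 and 2.32 in CC-IVM. Probe 2 was -7.96 to -7.47 in CC and -1.26, 1.95, 0.77 and 1.01 in CC-IVM. Replicate 1 was thus the lowest CC-IVM array on both. In TH probe 1 was above background on 4 arrays, at -4.67 to -3.61, and probe 2 on 2 arrays, at -4.78 and -5.04.

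The array gives the name CYP3A5 to both neighbours of CYP3A74, 2 transcripts whose accessions RefSeq names CYP3A28 and CYP3A76. The 2 spots of CYP3A28 were above background on none of the 20 arrays. CYP3A76 probe 1, the near-copy of CYP3A74 probe 2, followed CYP3A74 on both of its spots. On the first spot it was -1.68, 1.46, 0.31 and -0.03 in CC-IVM and -2.16 to -1.22 in oocytes, and it was not above background in TH, GC or CC. CYP3A76 probe 2 was not above background on any CC-IVM array, where it lay between -6.91 and -5.51 over both spots, although it was above background on 3 of 4 oocyte arrays at -4.80 to -4.22. With 53 of 57 bases in common, cross-hybridization of CYP3A76 probe 1 with CYP3A74 was not tested. Probe 1 of CYP3A74 does not hold the shared stretch.

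**Figure D2:**
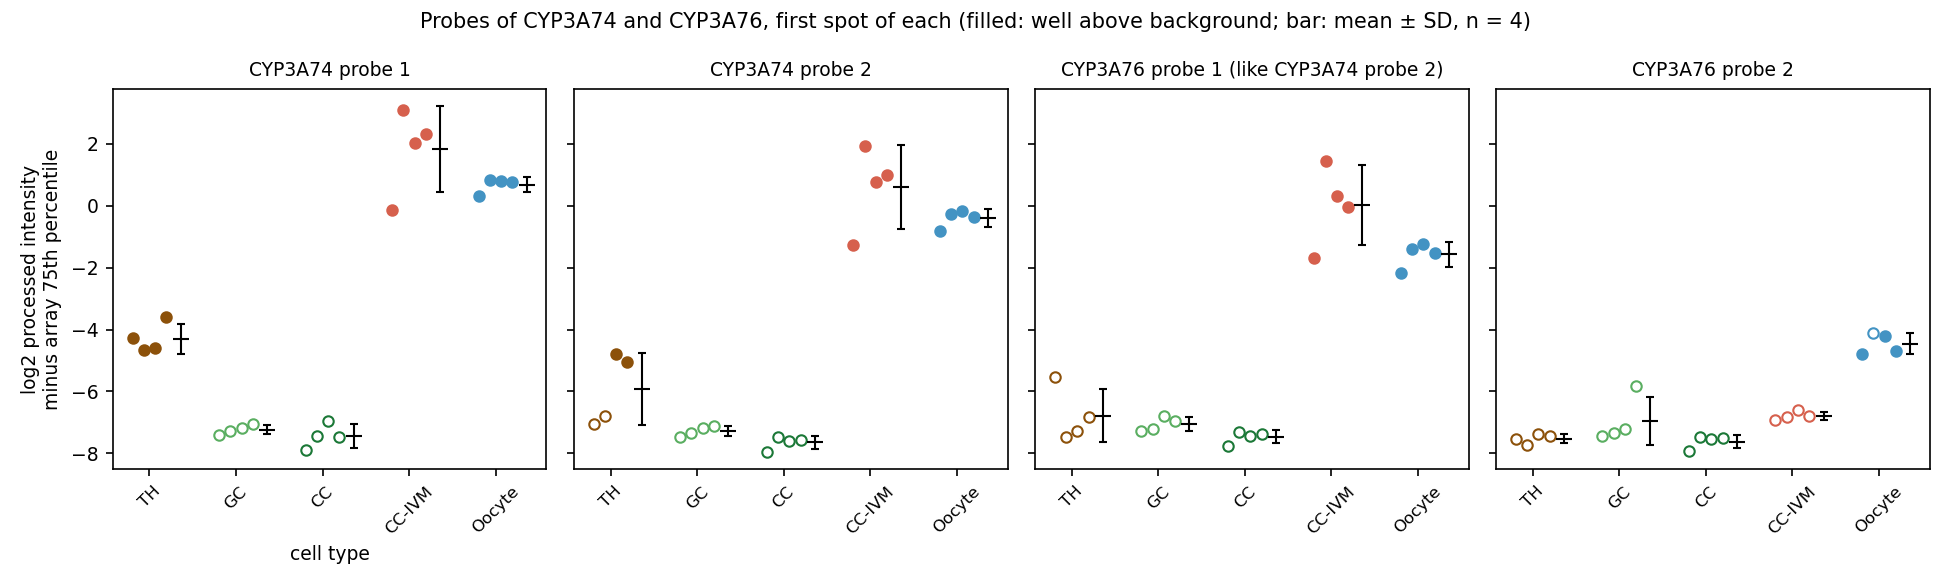
Level of each probe of CYP3A74 and CYP3A76 (first spot of each, log2 processed intensity minus the array's 75th percentile) by group, with 1 point per array, filled where well above background, and the mean ± SD of 4 arrays. Both CYP3A74 probes and probe 1 of CYP3A76 rose from the floor in CC to above -2 in CC-IVM, whereas probe 2 of CYP3A76 was not detected in CC-IVM and was detected on 3 oocyte arrays.

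Markers of the oocyte were also read in the cumulus samples. GDF9 and BMP15 are growth factors secreted by the oocyte, ZP2, ZP3 and ZP4 encode proteins of the zona pellucida, and NLRP5 is a maternal-effect gene. All 6 were above background on at least 3 CC arrays, and 3 of them, GDF9, BMP15 and ZP3, on at least 3 CC-IVM arrays. Their summed level ranged from -0.83 to 1.59 in CC, from -2.64 to -0.84 in CC-IVM and from 7.95 to 8.37 in oocytes. It was lower in CC-IVM than in CC. The part of oocyte RNA in the CYP3A74 signal of CC-IVM was not tested. ZP4 was at least 6.9-fold and ZP2 at least 4.81-fold lower in CC-IVM (adjusted p = 0.015 and 0.018 by limma). GDF9 and BMP15 differed by -0.75 and -0.21 and did not pass the test. Genes that open cumulus expansion set the CC-IVM arrays apart from CC. HAS2, which makes hyaluronan, was at least 160-fold higher in CC-IVM (adjusted p = 3.3e-06), and the EGF-like factors AREG and EREG at least 15.4-fold and 8.11-fold (adjusted p = 9.8e-06 and 6.1e-05). PTX3, a matrix protein, differed by -0.11 (adjusted p = 0.86). In oocytes HAS2 was above background on all 4 arrays, at -0.71 to -0.44, and AREG and EREG on none.

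**Figure D3:**
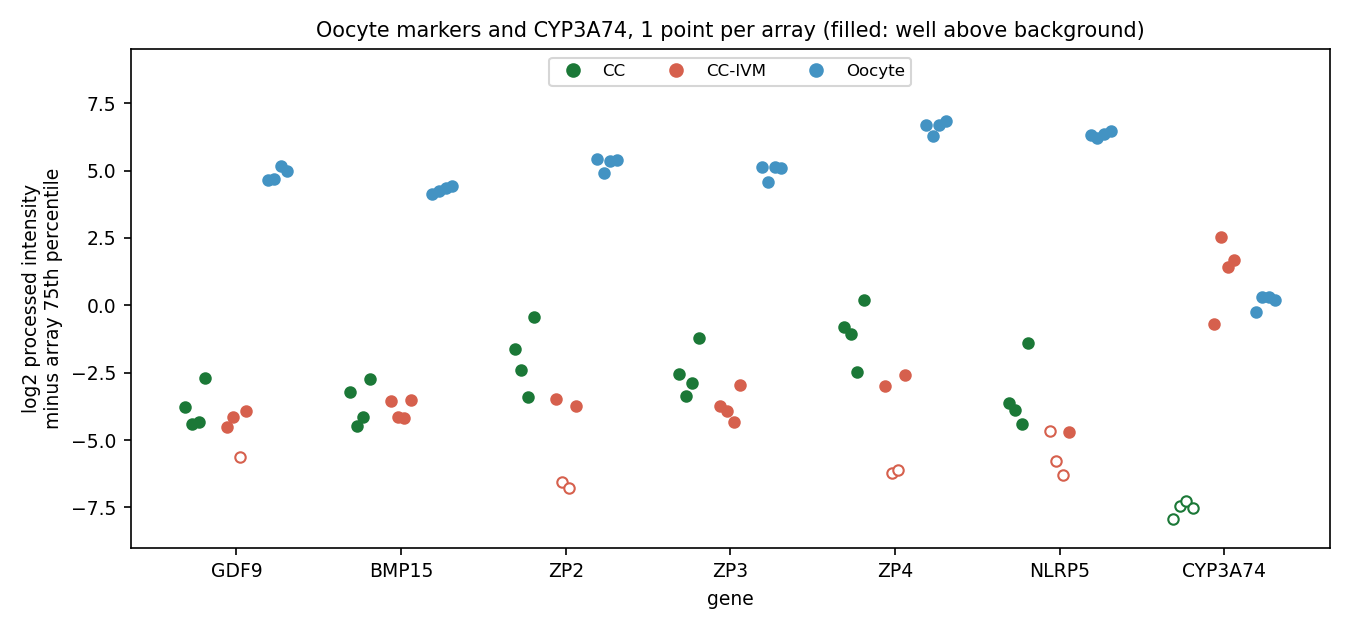
Level of 6 oocyte markers and of CYP3A74 (log2 processed intensity minus the array's 75th percentile) in CC, CC-IVM and oocytes, with 1 point per array, filled where well above background. The markers lay no higher in CC-IVM than in CC as a summed level (-2.64 to -0.84 against -0.83 to 1.59), and CYP3A74 was at -7.94 to -7.28 in CC and -0.69 to 2.53 in CC-IVM.

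AHR, the receptor, had its highest level in the oocyte. It was -0.90, -0.92, -0.79 and -0.88 there, a mean of -0.88 ± 0.06 (SD, n = 4). In TH it was -5.30, -5.38, -4.74 and -4.81, above background on all 4 arrays with probe 2 and on replicate 4 alone with probe 1. In GC it was -7.22, -7.15 and -7.01 on replicates 1 to 3, none above background, and -4.78 on replicate 4, where only probe 1 was detected, at -3.40, while probe 2 was at -6.15. The oocyte values did not overlap those of any other group. TH lay below the oocyte, with a log2 difference of -4.19 (SE 0.43, adjusted p = 3.6e-07 by limma), and the oocyte exceeded GC by at least 17.7-fold (adjusted p = 1.1e-08). TH minus oocyte was -2.19 with normexp, and GC minus oocyte was -2.04 with it and -3.39 in the deposited table.

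TH minus GC for AHR was 1.48 (SE 0.43, adjusted p = 0.02 by limma) and did not hold in every setting. TH did not exceed the floor of the GC arrays, so no fold is given. The difference kept its sign and call in 23 of 30 alternatives, among them the brightest probe (2.41). It was 2.06 without GC replicate 4, but it lost the threshold without TH replicate 3 (1.37) and without GC replicate 1, 2 or 3 (1.25, 1.27 and 1.32). Normexp turned it to -0.15 and the deposited table gave 0.11. On slide 1 it was 1.84, and on slide 2, which held GC replicate 4, it was 1.11.

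In cumulus cells AHR was -7.79, -7.34, -7.06 and -6.62 before maturation, never above background, and -5.55, -5.34, -4.08 and -4.61 after it, above background on replicates 3 and 4. Both detections came from probe 2, at -3.22 and -3.98, while probe 1 was above background on no CC-IVM array, at -6.55 to -4.94. The means were -7.20 ± 0.49 and -4.89 ± 0.68 (SD, n = 4 each). The difference of 2.31 (SE 0.37) is a description of 2 groups near the floor, and with only 2 of 4 CC-IVM arrays detected no fold is given. It was 0.82 with normexp and 0.74 in the deposited table.

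ARNT, the partner shared by AHR and the hypoxia-inducible factors, showed the opposite order. It was above background on all 20 arrays, at -0.37 to 0.09 in TH, -0.27 to -0.06 in GC, -0.34 to -0.11 in CC and -0.75 to 0.02 in CC-IVM. In the oocyte it was -3.38, -3.16, -3.36 and -3.29, clear of all other samples. TH and GC exceeded the oocyte by 3.14 and 3.15 (SE 0.14 each, adjusted p = 1.5e-11 for both by limma). The 4 somatic groups overlapped, with TH minus GC at -0.01 (SE 0.14, adjusted p = 0.95) and CC-IVM minus CC at -0.15 (SE 0.20). The difference between the cumulus groups was -0.02 without CC-IVM replicate 1, -0.28 without CC-IVM replicate 3 and -0.50 in the deposited table. The oocyte thus held the highest level of the receptor and the lowest of its partner.

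CYP1A1, the standard readout of an active receptor, was not above background on any of the 20 arrays with either probe. Its values ran from -7.63 to -7.05 in TH and GC, from -7.53 to -7.12 in CC and from -7.28 to -6.20 in CC-IVM. In oocytes they were -8.94, -6.29, -8.72 and -8.11, with the replicate of lowest detection highest. Differences between such values have no level, and CC-IVM minus CC, at 0.69 (SE 0.25), lay near the median difference of all genes, 0.37, which itself fell to 0.01 among the 14762 genes above background on at least 3 arrays of CC or CC-IVM.

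CYP1B1 was detected in TH only. There it was -4.07, -3.99, -3.57 and -3.15, a mean of -3.70 ± 0.43 (SD, n = 4). The signal came mainly from probe 2, at -2.72 to -1.77 and above background on 4 arrays, whereas probe 1 was above background on 2. In GC it was -7.08 to -6.41, in CC -7.49 to -7.13 and in CC-IVM -6.76 to -6.23, with no array above background, and CC-IVM minus CC was 0.79 (SE 0.20) between values at the floor. TH exceeded GC by at least 2.53-fold (adjusted p = 1.2e-04 by limma) and the oocyte by at least 4.61-fold (adjusted p = 3.8e-07). TH minus GC was 2.41 and no longer past the threshold on slide 1 alone and 3.69 on slide 2. It was 0.59 with normexp and 1.09 in the deposited table, and TH minus oocyte was 2.54 and 2.45. GC minus oocyte was 1.32 (adjusted p = 0.018), with neither group detected.

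Markers of other cells differed between these samples. The summed level of 4 blood markers was -1.46 to 0.08 in TH, -4.17 to -2.31 in GC, -5.36 to -4.52 in CC, -4.46 to -2.94 in CC-IVM and -0.17 to 0.21 in oocytes. Above background on at least 3 arrays were 3 of them in TH and 1, the T cell gene CD3E, in GC and in oocytes, and in CC and CC-IVM none. The leukocyte marker PTPRC was above background on no GC, CC, CC-IVM or oocyte array. The summed level of 3 endothelial markers was 0.43 to 2.13 in TH, -4.66 to -3.15 in GC, -5.63 to -4.86 in CC, -4.34 to -3.12 in CC-IVM and -1.23 to 1.01 in oocytes. Of these, 2 were above background on at least 3 arrays in TH, 1, VWF, in GC, CC-IVM and oocytes, and in CC none. VWF was at least 1.64-fold higher in CC-IVM than in CC (adjusted p = 0.0039 by limma), above background on 3 arrays against 1. The endothelial sum was thus higher in CC-IVM than in CC, as CYP3A74 was, but of its markers only VWF had a detected level there. PECAM1 was above background on no CC array and 1 CC-IVM array, and CDH5 on none of either group. The blood sums of CC and CC-IVM were of genes near the floor, so their difference has no measured level. Both sums were higher in TH than in GC, as CYP1B1 was. For AHR a higher level in TH than in GC did not hold in every setting. The part of blood and endothelial cells in these differences and in the oocyte signals was not tested. The theca markers summed to 4.66 to 5.03 in CC and 4.50 to 4.89 in CC-IVM. On GC replicate 4 the theca markers summed to 5.09, within the 4.90 to 6.84 of the GC arrays.

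Taking the 3 pairs among TH, GC and oocyte, 3 of the 5 genes passed the threshold between TH and GC, where 26.3% of all genes did, 4 between TH and oocyte against 64.6%, and 4 between GC and oocyte against 68.6%. Of these 11 differences, 4 were between detected levels, 4 were bounds, and 3 had no fold. In 2 of the 3 the brighter group did not exceed the floor of the dimmer group's arrays, and in 1 neither group was detected.

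The genes around the receptor were read in 4 lists, whose 47 members other than the 5 genes were tested between CC-IVM and CC by limma with adjustment over all 22550 genes. Of these, 12 were higher (25.5%, against 30.3% of all genes) and 8 lower (17%, against 15.5%), with a median difference of 0.05 against 0.37. Among the 33 above background on at least 3 arrays of either group, 8 were higher and 8 lower (24.2% each, against 21.8% and 23.4% of all such genes), with a median of -0.35 against 0.01. The shares were near those of all genes. The counts fell to 7 higher without CC replicate 1, CC replicate 3 or CC-IVM replicate 4, where those of all genes fell to 16.5%, 16.9% and 18.6%. They fell to 3 to 5 lower without CC replicate 1, 3 or 4 or CC-IVM replicate 4, against 12.3% to 13.1% of all genes.

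In the receptor complex with its partners and repressors, 4 of 16 genes rose and 4 fell, with a median of -0.26. Each share was 25%, against 30.3% of all genes higher and 15.5% lower. EPAS1, the hypoxia-inducible factor HIF-2α that also pairs with ARNT, rose from -2.63 to -2.06 in CC to -0.50 to 0.07 in CC-IVM, by 2.15 (SE 0.21, adjusted p = 6.2e-05), or by 1.43 in the deposited table. The chaperone genes HSP90AA1 and PTGES3 (p23), which hold AHR ready for its ligand, rose by 0.80 and 0.83 (adjusted p = 0.005 and 0.0058). The call of HSP90AA1 was lost with quantile normalization (0.24), and in the deposited table the rises were 0.34 and 0.35. HSP90AB1, a further HSP90 gene above background on all CC and CC-IVM arrays, differed by -0.35 (SE 0.32) and did not pass the test (adjusted p = 0.39 by limma).

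The coactivators moved apart. NCOA3 rose by 0.88 (adjusted p = 0.0095), or 0.46 in the deposited table, and NCOA2 fell by 1.80 (adjusted p = 0.0036), or by 0.93 in the deposited table and 0.28 with normexp. CUL4B, a ubiquitin ligase scaffold that can assemble with AHR, fell by 0.67 (adjusted p = 0.019), a call lost without CC replicate 3 or 4 and with normexp (-0.02). DDB1, an adaptor of such ligases, also fell, by 0.51 (adjusted p = 0.048). The repressor AHRR was -4.53 to -4.51 in CC and -4.93 to -4.39 in CC-IVM, and TIPARP -1.38 to -0.81 and -2.07 to -0.93, so that both groups overlapped for each (adjusted p = 0.83 and 0.48).

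Among other AHR target genes, 3 of 13 were called higher (23.1%, against 30.3% of all genes) and none lower (against 15.5%). The median was 0.11. The protease inhibitor SERPINB2, which was -4.38, -3.72, -1.89 and -1.65 in CC, was 0.69 to 3.04 in CC-IVM, a rise of 4.65 (SE 0.67, adjusted p = 6.6e-04), or 7.58 where probes were named by RefSeq accession. TXNRD1, the thioredoxin reductase, was 3.41 to 3.51 in CC and 5.33 to 5.48 in CC-IVM, a rise of 1.97 (SE 0.16, adjusted p = 2.6e-05). UGT1A6 was called (0.76, adjusted p = 0.025) at values detected on no CC array and 1 CC-IVM array, and the call was lost without CC replicate 1 or 3 or CC-IVM replicate 4 and with quantile normalization (0.10). The P450 targets CYP1A2 and CYP2S1 were each detected on 1 CC array and no CC-IVM array. The quinone reductase NQO1 (-0.95) and the glutathione transferase GSTA1 (0.11) did not pass the test.

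Tryptophan breakdown makes ligands of AHR. Of its 8 enzymes, 4 were above background on at least 3 arrays of CC or CC-IVM, and of these AADAT, a kynurenine aminotransferase, was called lower, being at 1.00 to 1.31 in CC and -1.41 to 0.63 in CC-IVM, and fell by 1.68 (SE 0.37, adjusted p = 0.0069). TDO2 and IDO2, 2 of the enzymes that open the pathway, were called higher by 0.67 and 0.64 (adjusted p = 0.027 and 0.035) without being above background on any CC or CC-IVM array, and quantile normalization turned these differences to -0.02 and -0.05.

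**Figure D4:**
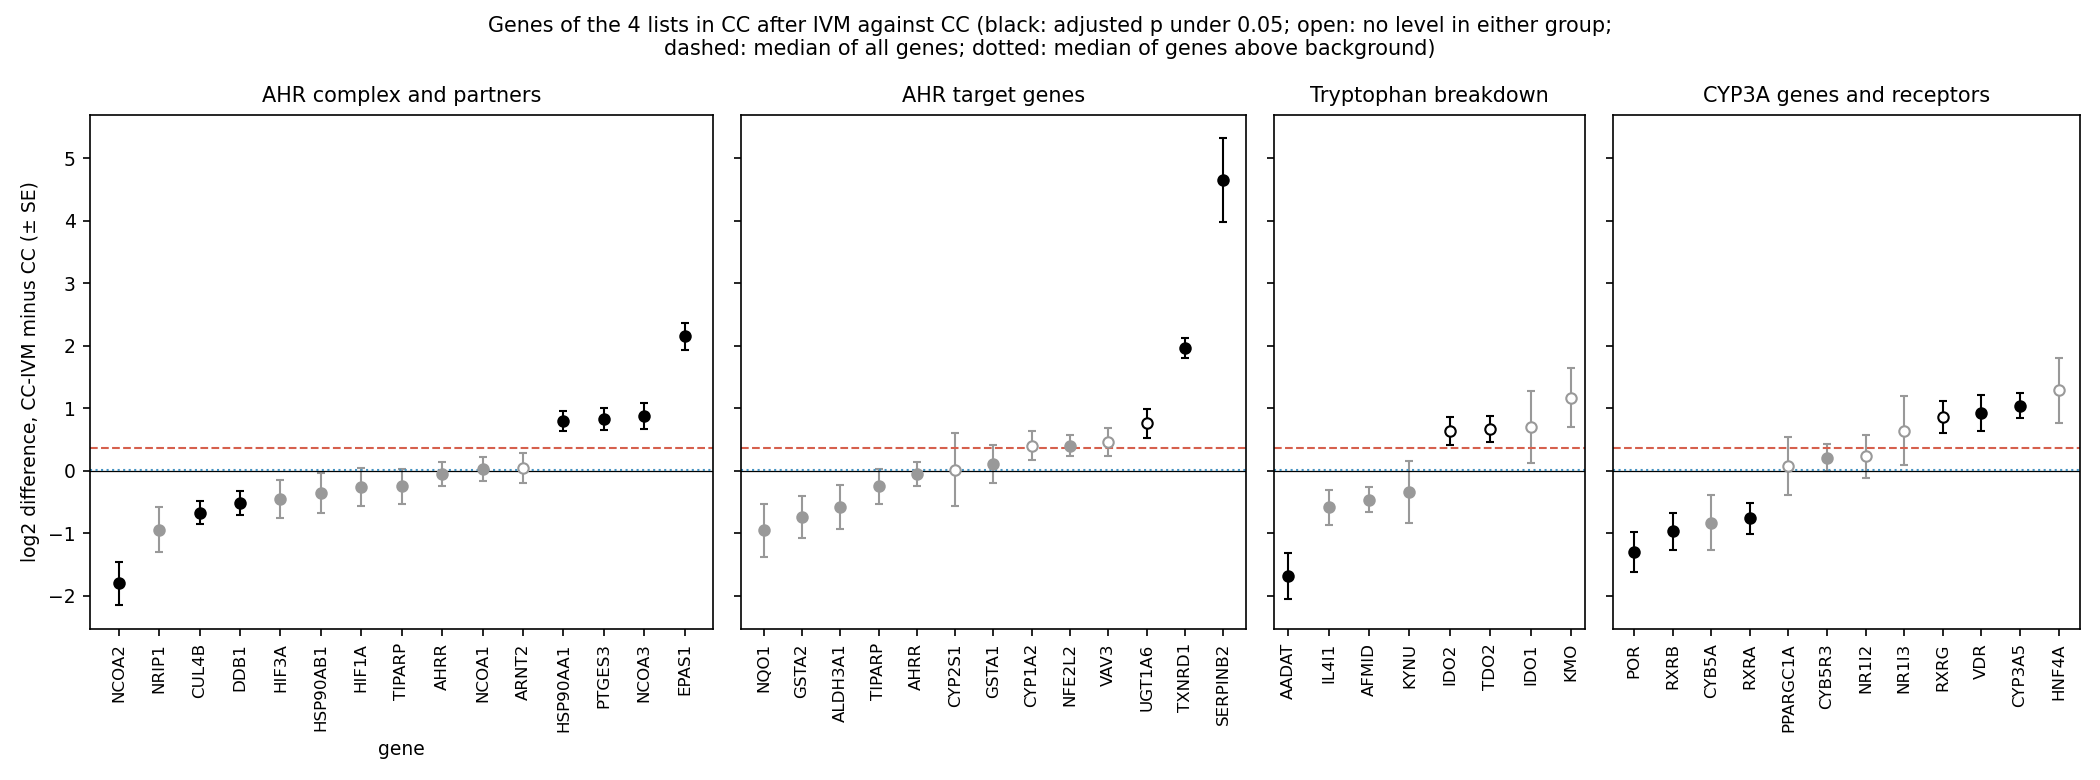
Difference between CC-IVM and CC (log2, ± SE from the fit of 8 arrays) for 46 of the 47 genes of the 4 lists, black where the adjusted p was under 0.05 and open where the gene was above background on fewer than 3 arrays of both groups. The dashed and dotted lines are the medians of all genes (0.37) and of genes above background (0.01), and SERPINB2 (4.65), EPAS1 (2.15) and TXNRD1 (1.97) lie highest.

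Of the CYP3A genes with their nuclear receptors and electron donors, 3 of 12 were called higher and 3 lower, with a median of 0.22. Each share was 25%, against 30.3% of all genes higher and 15.5% lower. POR, the reductase that passes electrons to every microsomal P450, fell by 1.30 (SE 0.32, adjusted p = 0.012), from 1.24 to 2.16 in CC to -0.31 to 0.99 in CC-IVM. The retinoid X receptors RXRB and RXRA fell by 0.97 and 0.76 (adjusted p = 0.027 and 0.033). The call of RXRB was lost when any of the CC replicates or CC-IVM replicate 4 was left out and with its brightest probe (-0.54), that of RXRA without CC replicate 1, 3 or 4 or CC-IVM replicate 1 or 4, and normexp turned RXRA to 0.23. The vitamin D receptor VDR rose by 0.92 (adjusted p = 0.028), a call lost without CC replicate 1, 2 or 3 or CC-IVM replicate 4 and with quantile normalization (0.69). RXRG was called (0.86, adjusted p = 0.026) below background in both groups, and quantile normalization gave 0.31. The gene named CYP3A5 on the array was called (1.04, adjusted p = 0.0036) as the median over the CYP3A28 and CYP3A76 spots. It lost its call with quantile normalization (0.51) and became 7.47 when the brightest probe, the near-copy of CYP3A74, stood for it.

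NR1I2, singled out after its values were seen, did not follow CYP3A74 into CC-IVM. It was above background on no TH, GC or CC-IVM array and on 2 CC arrays, and CC-IVM minus CC was 0.23 (adjusted p = 0.61). In the oocyte it was 2.81, 2.97, 2.82 and 3.05, at least 294-fold higher than in TH and 247-fold higher than in GC (adjusted p = 1.9e-12 and 2.0e-12 by limma). TH minus oocyte was -6.22 and GC minus oocyte -5.91 with normexp. Since NR1I2 was picked for these values, its p-values serve as a description only. CYP3A74 was high in the oocyte, where NR1I2 was detected, and in CC-IVM, where NR1I2 was not detected. The part of NR1I2 in the CYP3A74 levels was not tested.

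Among all other P450 genes of the array, 18 of 39 were called higher in CC-IVM (46.2%, against 30.3% of all genes) and 3 lower (7.69%, against 15.5%), with a median of 0.53. Of the 21 above background on at least 3 arrays of either group, 8 were higher and 3 lower (38.1% and 14.3%, against 21.8% and 23.4%). The 8 include the merged CYP3A5, which was above background in CC-IVM only through the near-copy of CYP3A74 probe 2. CYP27B1, which activates vitamin D, rose by 3.28 (SE 0.48, adjusted p = 7.4e-04), with -4.99 to -4.43 in CC and -2.91 to -0.24 in CC-IVM, where replicate 1 was again the lowest. The rise was 1.93 with normexp and 1.97 in the deposited table. CYP51A1 of cholesterol synthesis rose by 2.11 (adjusted p = 7.7e-05) and CYP39A1, an oxysterol hydroxylase, by 1.93 (adjusted p = 4.9e-04). CYP2C23 and CYP2C18 were at least 2.56-fold and 2.47-fold higher (adjusted p = 0.0027 and 0.012), with differences of 2.02 and 1.95 that became 0.94 and 0.93 with normexp and 0.80 and 0.79 in the deposited table, and the call of CYP2C23 was lost with its brightest probe (1.11).

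The 3 that fell were CYP2U1, a fatty acid hydroxylase, by 2.17 (adjusted p = 1.6e-04), CYP19A1, the aromatase that makes oestradiol, by 1.26 (adjusted p = 0.032), and the sterol hydroxylase CYP27A1, by 0.97 (adjusted p = 0.0076). The call of CYP19A1 was lost without CC replicate 1, 2 or 4 or CC-IVM replicate 1, 2 or 4.

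Over the 20 arrays, the genes most like CYP3A74 were SLC1A4, a transporter of neutral amino acids (Pearson r = 0.971), PSPH, of serine synthesis (0.969), GRAMD1B, a cholesterol carrier (0.968), GCH1, which opens tetrahydrobiopterin synthesis (0.965), and CTH, of cysteine synthesis (0.961). These coefficients describe arrays that share 5 group levels and the scale of each array. All 5 were above background on every array. In GCH1 the mean was -0.16 ± 0.22 in CC, 5.38 ± 0.23 in CC-IVM and 3.93 ± 0.11 in oocytes (SD, n = 4), and in SLC1A4 it was -1.83 ± 0.20, 4.24 ± 0.63 and 2.70 ± 0.22.

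For CYP1B1 the most alike were IGLL1 (0.978), NPVF (0.973), TNNI1 (0.972), MBOAT4 (0.971) and ARHGEF15 (0.969), all with their highest mean in TH, between -4.76 and -1.92, and above background on all 4 TH arrays. For CYP1A1 they were SNORD112, SFTPA1, Vault, MAG and TRHDE (0.956 to 0.964), whose group means lay between -8.00 and -6.48, and since CYP1A1 was not detected this likeness is one of values at the floor.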

How the data were processed

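For each of the 20 one-colour arrays, the authors deposited Agilent Feature Extraction output (version 10.7.3.1), in which intensity is given per spot with and without background subtraction, with marks for outliers and for signal well above background. They also deposited a table of log2 values, which equalled log2 of the median signal minus the array median within 5.0e-09. From the processed intensity, spots marked as outliers were dropped, each array was scaled on the log2 scale by its 75th percentile over 61325 non-control probes, and the median over the spots of a gene was taken. Of these probes, 9779 had no gene name and 734 of them were named by RefSeq accession.

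Models were fitted with limma 3.58.1 in R 4.3.3 (data.table version 1.17.8), with Benjamini–Hochberg adjustment over all 22550 genes and a threshold of 0.05. TH, GC and oocytes were compared in a fit of 16 arrays, and CC-IVM with CC in a fit of 8. Python 3.11.15 (with matplotlib 3.10.9, pandas 2.3.3 and numpy 2.4.6) made the tables and figures. A gene above background on fewer than 3 of 4 arrays of the dimmer group was given a bound, against the higher of the array's lowest signal well above background and its own value. Samples were grouped by their titles. The 5 genes and the lists were chosen with earlier results of these data known, so no test is given for the 5 genes in CC-IVM against CC. Named were the 5 genes, the called genes of each list (at most 6, by size), the 5 P450 genes that rose and fell most, and the 5 genes most like CYP3A74, CYP1A1 and CYP1B1. Several listed genes, among them UGT1A1, CYP3A4, CYP3A24 and NR3C1, were not found under these names. The values of 1 list gene are not reported here.

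Replicate numbers are shared by the groups. Deviations of same-numbered samples from their group means correlated at 0.12 to 0.37 between TH and GC, at -0.18 to 0.00 between TH and oocyte, at -0.02 to 0.14 between GC and oocyte and at -0.18 to -0.02 between CC and CC-IVM, so that the numbers paired TH with GC, which share slides by number too. The fits were tested on simulated data with 200 changed genes, far fewer than were called in the data. A log2 change of 1 was recovered for 27.0% of them between TH and GC and 0.0% between CC-IVM and CC. For a change of 2 these shares were 82.5% and 78.5%. A gene that did not pass the test may thus still differ by a small amount. The number of arrays limits the precision. Alternatives were other normalizations, normexp (offset 50), the deposited log2 values, other summaries of probes, a filter on dim genes, all 20 arrays fitted together, blocks, single slides, each array left out, the methods' analysis of variance with Tukey test and, chosen after seeing the data, gene names by RefSeq accession.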

Additional observations from a re-analysis of the deposited data

Results flagged for a closer look

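In 66 groups of 4 arrays, 5 held a sample far from the other 3, where chance gives about 1 in 20. AHR in GC replicate 4 was -4.78 against -7.22 to -7.01 on the others, and it was the only GC array on which AHR was above background. The other 4 were small distances within tight groups. PTGES3 in CC replicate 2 was 4.00 against 3.79 to 3.81, TXNRD1 in CC-IVM replicate 3 was 5.33 against 5.46 to 5.48, CYP2U1 in CC replicate 4 was 2.23 against 2.35 to 2.37, and the merged CYP3A5 in CC-IVM replicate 3 was -6.06 against -6.58 to -6.51.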

How the results depend on the processing

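Of the 15 differences among TH, GC and oocyte, 11 passed the threshold, 10 by the methods' Tukey test and 10 to 13 with an array left out. The CYP3A74 difference between CC-IVM and CC, 8.78, was 4.60 with normexp, 5.02 in the deposited table and 8.34 to 9.42 with an array left out. The list genes higher in CC-IVM, 12, were 6 with quantile normalization, 28 with normexp, 19 in the deposited table and 7 to 14 with an array left out, where 12.2%, 65.3%, 43.2% and 16.5% to 33.7% of all genes were higher, against 30.3%. Those lower, 8, were 14 in the deposited table, 5 with the brightest probe, 15 with slide as a random block (correlation within a slide -0.26) and 3 to 9 with an array left out, where 22.3%, 15%, 22.1% and 12.3% to 15.8% of all genes were lower, against 15.5%. With the replicate number as a block the list counts were 9 higher and 4 lower (18.4% and 12.9% of all genes), the 11 differences stayed at 11, and no call of the 5 genes changed. CC and CC-IVM share only a number, and none of the 4 CC arrays correlated best with its own.

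Differences near 0 or at the floor turned sign. CYP1A1 in TH minus GC was 0.01 with quantile normalization, and TDO2 and IDO2 were -0.02 and -0.05. ARNT in TH minus GC was 0.10 with the percentile over probes detected on all arrays, 0.12 in the deposited table, 0.07 with the brightest probe, 0.02 on slide 2, and -0.10 to 0.05 with an array left out, above 0 without TH replicate 1 or 4 or GC replicate 2 or 3. Normexp gave -0.15 for AHR in TH minus GC and 0.23 for RXRA. CYP1B1 in GC minus oocyte lost its call with quantile normalization (0.40), the array median (1.14), on slide 1 (1.18) and without oocyte replicate 1 or 3 (1.03 each). The cause of these changes was not tested. Genes below background have no measured level here.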

Other observations

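The P450 genes above background were counted in each group. Of the 42 on the array, CYP3A74, CYP1A1 and CYP1B1 included, 22 were above background on at least 3 arrays in TH, 16 in GC, 18 in CC, 21 in CC-IVM and 18 in oocytes, and 5 on no array. The share of all probes above background varied too, from 54.2% to 58.3% in CC-IVM and from 49.3% to 68.8% in oocytes. Whether the differences in count are particular to P450 genes was not tested. CYP2U1 was highest in CC (2.33 ± 0.07), followed by GC (1.51 ± 0.18), CC-IVM (0.16 ± 0.47), TH (-0.08 ± 0.11) and the oocyte (-2.21 ± 0.17; SD, n = 4 each). CYP27B1 was above background on all oocyte, CC and CC-IVM arrays, on 3 GC arrays and on no TH array.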
